A study of Mus musculus with 8 samples.

Results

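The genes of the translation initiation factors (eIF) and elongation factors (eEF) were examined in the livers of mice fed a diet low in amino acids. Members were the rows of the liver RNA-Seq table whose symbol begins with Eif1 to Eif6, Eef1 or Eef2, without the kinases whose symbols begin with Eif2ak and the binding proteins whose symbols begin with Eif4ebp. This rule gave 56 of the 11784 genes in the table, and all 56 passed the filter on low values. Livers came from 8 male C57BL/6J mice, 4 of them fed the Control diet (TD.140711) and 4 fed the Low AA diet (TD.140712). Both diets are defined by their amino acids, and the Low AA diet supplies fewer of its calories as amino acids and more as carbohydrate. The mice changed diet at 9 weeks of age, stayed on it for 4 months and were killed in the morning after a fast of about 16 hours, so every value describes the fasted liver. Mice carry the codes of the labels, with F for Control and H for Low AA, and values are given in the order H1126, H828, H817, H1315 against F129, F2212, F7111, F2110, the Low AA diet first. The comparison asks which of these genes differed in liver mRNA between the diets.

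Initiation factors bring the small ribosomal subunit, the initiator tRNA and the mRNA together. The eIF2 complex carries the initiator tRNA and is recharged with GTP by eIF2B, eIF3 holds the small subunit, and eIF4E, eIF4G and eIF4A bind and unwind the capped end of the mRNA. During elongation eEF1A delivers each aminoacyl-tRNA, the eEF1B subunits recharge eEF1A, and eEF2 moves the ribosome along. In liver these steps respond to amino acid supply mainly through phosphorylation of eIF2, of the eIF4E-binding proteins and of eEF2, none of which an mRNA table measures. Not every symbol in the rule belongs to a translation factor. Eif2c1, Eif2c2, Eif2c3 and Eif2c4 are older symbols of the Argonaute genes Ago1, Ago2, Ago3 and Ago4, which act in microRNA silencing. Eef2k encodes a kinase, Eef1e1 a protein of the complex of aminoacyl-tRNA synthetases, and Eif4enif1 the protein that carries eIF4E into the nucleus.

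Values are read counts that the authors scaled per mouse and rounded, called scaled read counts here. They summed to between 27876664 and 30799385 per mouse, and their median over genes lay between 433.0 and 449.0. The labels give no batch. The 7 hepatocyte markers in the table summed to between 2184992 and 2661062 per mouse, and none of them passed the test between diets. Control mouse F2212 stood apart with 36587 scaled read counts of Cela1, the only one of 8 pancreatic acinar markers in the table, against 130 to 288 in the other mice, and with the highest sum of blood markers, 15511 against 4743 to 9934. The summed markers of macrophages, endothelial cells, stellate cells and lymphocytes overlapped between the diets. Those of cholangiocytes overlapped narrowly, with 71 to 145 in Low AA mice against 141 to 234 in Control mice, and none of these markers passed the test. In bulk tissue, fewer cells of a type and less RNA per cell cannot be told apart. Mice also differed in the balance of short and long transcripts. The median log2 deviation of the genes with the shortest transcripts, minus that of the genes with the longest, taking 20% of genes at each end, was 0.48 in Control mouse F2212 and -0.40 in Control mouse F7111, with 0.18 in F129 and -0.17 in F2110. The Low AA mice were between -0.19 in H828 and 0.26 in H1315, within the Control range. An alternative removed this trend from each mouse before the fit.

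No translation factor gene passed the threshold. At a limma adjusted p under 0.05, 0 of 56 members were called, where 0.399% of all genes tested were called. At an unadjusted p under 0.05 in limma there were 5 of 56 members (8.93%), where 11.8% of all genes reached it, so the share was near the background. Of these 5, Eif4a2 and Eef2k had lower values on the Low AA diet, 2 genes where 6.7% of all genes were lower at that p. Eef1b2, Eif3e and Eef1a1 had higher values, 3 genes where 5.13% of all genes were higher. Leaving out F2212, a Control mouse, gave 8 members (14.3%) where 12.4% of all genes reached that p in the same fit, and leaving out H817, a Low AA mouse, gave 3 (5.36%) where 7.84% did. With the transcript length trend removed there were 12 (21.4%), where 15.4% of all genes reached it. In 7 members (12.5%) the 4 mice of one diet did not overlap the 4 of the other, where 6.81% of all genes did so. They were the 5 genes just named with Eif3c and Eif4e, 5 of them higher on the Low AA diet (background 3.26%) and 2 lower (background 3.55%). Leaving out a mouse can keep or raise this count but cannot lower it, for the members and for all genes alike. Without Low AA mouse H1126 it was 12 (21.4%), where 9.38% of all genes did not overlap, and without Control mouse F2212 it was 11 (19.6%), where 11.7% did not.

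The differences were small and leaned one way. Fold changes are on the scale of log2(value + 1), Low AA minus Control, and understate those of genes with low values. Of the 56 members, 42 (75.0%) had a positive log2 fold change, where 50.5% of all genes did, and the median over the members was 0.09, where that over all genes was 0.00. The median was 0.06 without Low AA mouse H1315. Over fits without each mouse, the count of positive members was lowest, 37 of 56, without Control mouse F7111. It was highest, 45 of 56, without Low AA mouse H1126. In 50 members the log2 fold change was under 0.25 in size. Within mice, the median log2 deviation of the members from the mean of the 8 mice ran from -0.07 to 0.03 on the Control diet and from -0.02 to 0.08 on the Low AA diet, so the diets overlapped. Control mouse F129, at 0.03, was above Low AA mouse H1126, at -0.02.

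**Figure D1:**
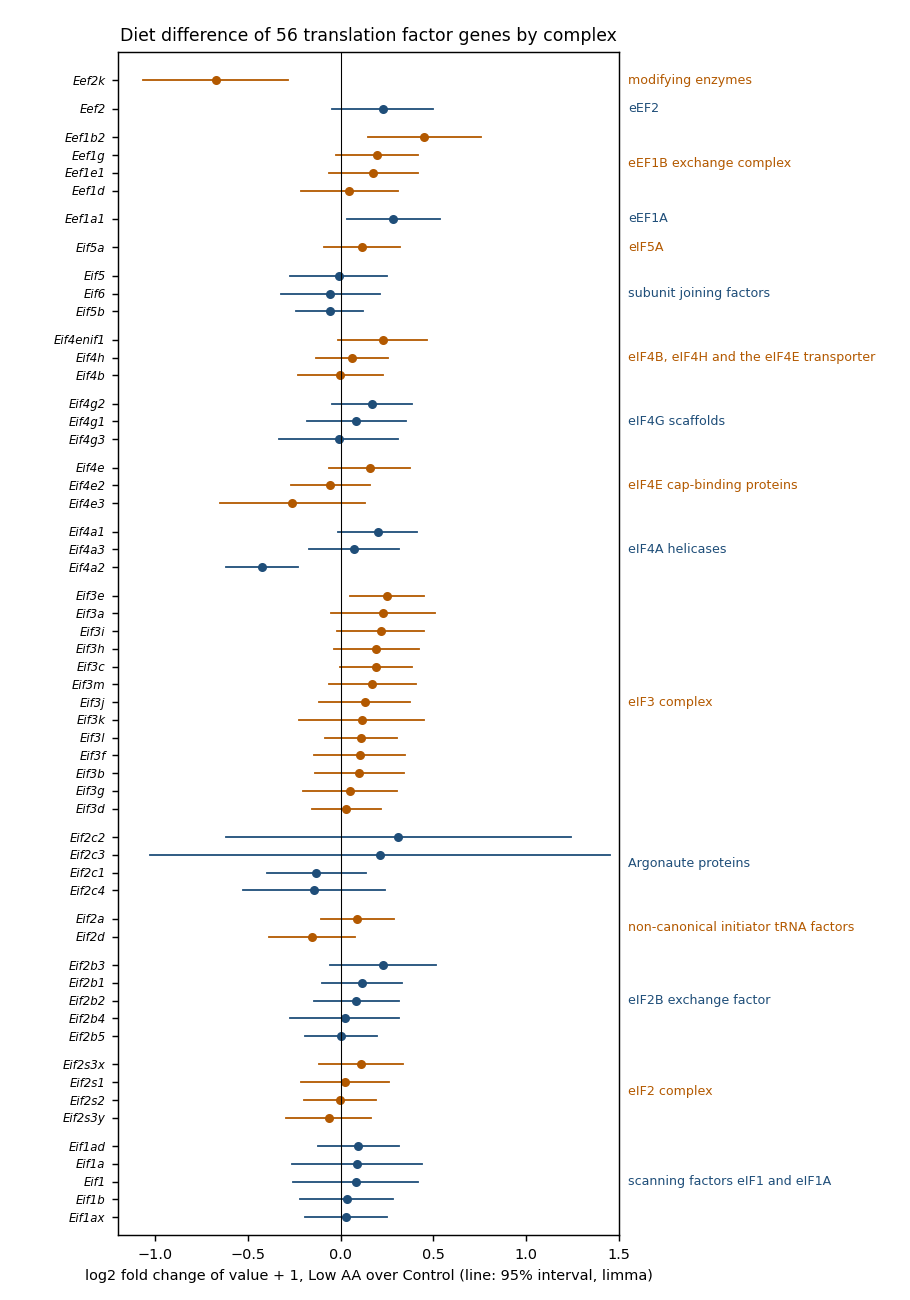
Log2 fold change, Low AA over Control, of each of the 56 genes (points) with its 95% limma interval (lines), on the scale of log2(value + 1), grouped by complex with alternating colours. All 13 eIF3 genes lie to the right of 0, and the interval excludes 0 for Eif4a2, Eef2k, Eef1b2, Eef1a1 and Eif3e.

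The 5 genes whose symbols begin with Eif1, grouped under the start codon factors eIF1 and eIF1A, had log2 fold changes from 0.03 to 0.10. The highest was that of Eif1ad, placed there by its symbol alone. Eif1, whose protein guards start codon choice, had 14601, 14613, 15622 and 17016 scaled read counts in Low AA mice H1126, H828, H817 and H1315, and 16063, 17886, 10715 and 14754 in Control mice F129, F2212, F7111 and F2110. The diets overlapped, and the lowest value of all was that of F7111 (log2 fold change 0.08, 95% interval -0.26 to 0.42, limma adjusted p = 0.893). Without F7111 the log2 fold change of Eif1 was -0.07. Eif1a, on which the scanning subunit also depends, likewise had its highest and lowest values, 2386 and 1434, in Control mice F129 and F2212.

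None of the 4 genes of the eIF2 complex differed by more than the spread between mice. Eif2s1, the alpha subunit that the amino acid sensing kinase phosphorylates, had 1247 ± 139 scaled read counts against 1225 ± 97.5 in Control mice (SD, n = 4 each), with the highest value, 1453, in Low AA mouse H817 and the others overlapping. Its log2 fold change was 0.02, with a 95% interval of -0.22 to 0.26 (limma adjusted p = 0.962). Eif2s2, the beta subunit, had 2222 ± 126 against 2229 ± 124 (SD, n = 4 each, Low AA first), and its 95% interval of -0.20 to 0.19 bounds the change to between -12.9% and 14.1%. The gamma subunit is encoded on both sex chromosomes, by Eif2s3x and Eif2s3y, which are near-identical copies whose reads may be split between them. Eif2s3x had 3491 ± 278 against 3242 ± 297, and Eif2s3y had 1411 ± 94.2 against 1481 ± 158 (SD, n = 4 each), and both overlapped. The ratio of Eif2s3x to Eif2s3y was 2.28 to 2.58 in the Low AA mice and 1.93 to 2.55 in the Control mice.

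The 5 genes of eIF2B, the exchange factor for eIF2, all had positive log2 fold changes, from 0.00 for Eif2b5 to 0.23 for Eif2b3. Eif2b5 encodes the catalytic subunit and had the same mean, 1213, on both diets, with an SD of 46.6 in Low AA mice against 76.5 in Control mice (n = 4 each). Its 95% interval was -0.19 to 0.20. Eif2b3 had 307, 264, 355 and 339 in the Low AA mice and 282, 254, 298 and 242 in the Control mice. Those values overlap (95% interval -0.06 to 0.51, limma adjusted p = 0.54). Eif2a and Eif2d, which encode factors that can place initiator tRNA without eIF2, had log2 fold changes of 0.09 and -0.15 and overlapped between diets.

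All 13 genes of eIF3 had positive log2 fold changes, from 0.03 for Eif3d to 0.25 for Eif3e, with a median of 0.13. Over all genes, 50.5% were positive. None passed the test, and 1 of the 13 (7.69%) had an unadjusted p under 0.05 in limma, where 11.8% of all genes reached it. In 2 of the 13 (15.4%) the diets did not overlap, where 6.81% of all genes did so. Per mouse, the median log2 deviation of the eIF3 genes ran from -0.02 to 0.12 on the Low AA diet. On the Control diet it ran from -0.14 to 0.02, so the diets overlapped. Eif3e, on chromosome 15 from 43250058 to 43282719 of GRCm38, the build of all gene positions here, had 2962, 3242, 3208 and 3152 scaled read counts in the Low AA mice and 2793, 2546, 2418 and 2831 in the Control mice. Every Low AA value was above every Control value, and the change was 18.8% with a 95% interval of 3.5% to 36.4% (limma adjusted p = 0.297). Eif3c, the other eIF3 gene without overlap and a core subunit, had 4405, 4781, 4588 and 4405 against 4257, 3758, 4186 and 3761. Its 95% interval, -0.00 to 0.38, reached 0 (limma adjusted p = 0.439). Eif3a, the largest core subunit, had 4781, 5749, 4895 and 4241 against 4361, 3659, 4947 and 3854, so that Control mouse F7111 was above 3 of the 4 Low AA mice. Eif3h had 3062 ± 223 against 2685 ± 276 (SD, n = 4 each) and overlapped. For these genes the lowest value among the 8 mice was in a Control mouse. Eif3d had the smallest log2 fold change of the eIF3 genes, with 2272 ± 83.5 and 2228 ± 111 (SD, n = 4 each).

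The RNA helicases eIF4A1 and eIF4A2, close paralogs that unwind the mRNA leader, had differences of opposite sign. Eif4a2, on chromosome 16 from 23107444 to 23114136, had 5838, 6185, 5702 and 5872 scaled read counts in the Low AA mice and 8583, 7842, 7255 and 8054 in the Control mice. The highest Low AA value was below the lowest Control value. The log2 fold change was -0.43 (standard error 0.09, 95% interval -0.62 to -0.23), and the limma adjusted p of 0.0812 was the smallest of the 56 members without passing the threshold. Leaving out each mouse in turn gave log2 fold changes between -0.47 and -0.39 and limma adjusted p between 0.0696 and 0.288. With the transcript length trend removed it was -0.41 and passed (limma adjusted p = 0.0393). Eif4a1, the more abundant paralog, had 11060, 10054, 12534 and 11769 against 9915, 9883, 9400 and 10256. Only Low AA mouse H828 fell within the Control range (log2 fold change 0.20, 95% interval -0.01 to 0.41, limma adjusted p = 0.464). Reads that the paralogs share could have been assigned to either. Eif4a3, which acts in the exon junction complex rather than in initiation, had 943 ± 43.4 against 902 ± 113 (SD, n = 4 each).

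The ratio of Eif4a1 to Eif4a2 within a mouse does not depend on how the columns were scaled. It was 1.89, 1.63, 2.20 and 2.004 in the Low AA mice and 1.16, 1.26, 1.30 and 1.27 in the Control mice. All 4 Low AA mice were above all 4 Control mice, with means of 1.93 ± 0.24 and 1.25 ± 0.06 (SD, n = 4 each). The ratio was formed after the values of both genes had been seen, and it was given no test.

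**Figure D2:**
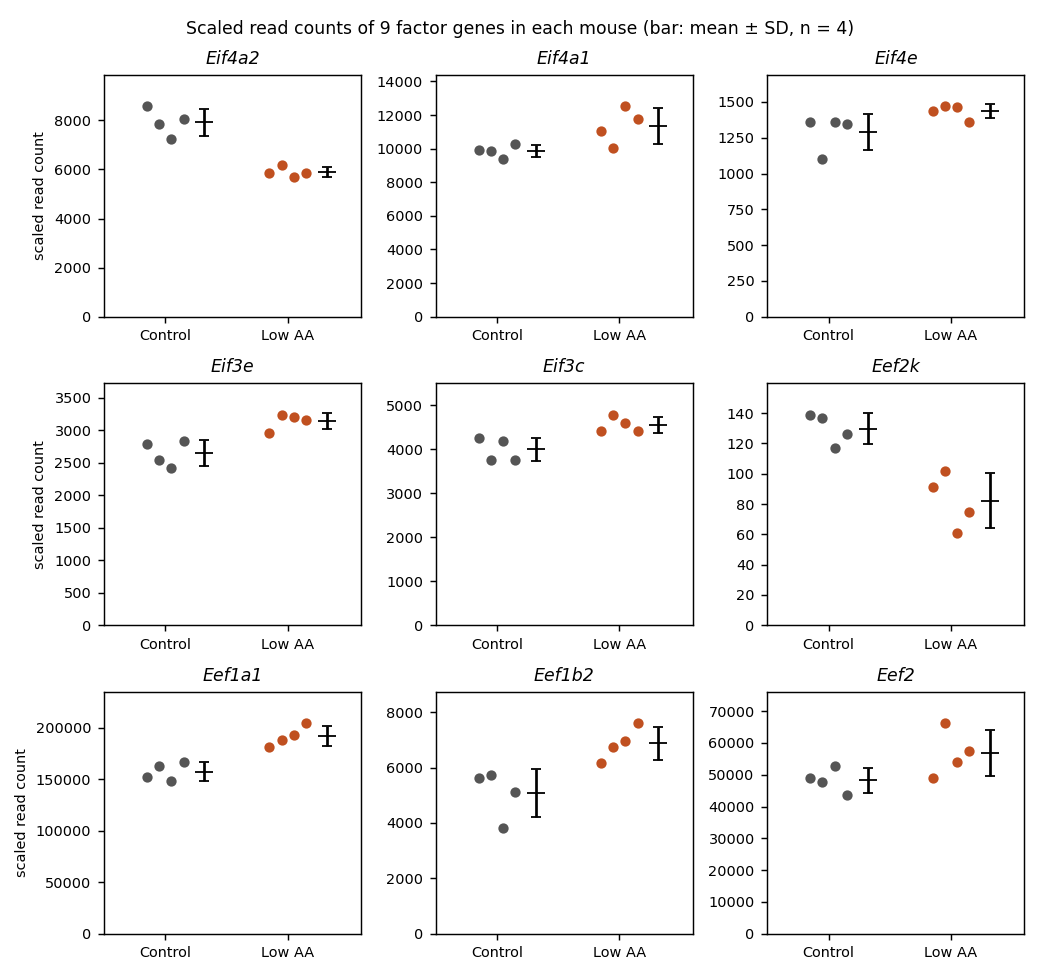
Scaled read counts (vertical axis, from 0) of 9 factor genes in each of the 4 Control (grey) and 4 Low AA (orange) mice, with the mean and SD as bars. Eif4a2 and Eef2k lie lower in all 4 Low AA mice, Eif3e, Eif3c, Eef1a1 and Eef1b2 lie higher in all 4, Eif4e barely separates, and Eif4a1 and Eef2 overlap.

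The cap-binding protein gene Eif4e had 1439, 1471, 1462 and 1363 in the Low AA mice and 1359, 1100, 1360 and 1346 in the Control mice. The lowest Low AA value, 1363, was just above the highest Control value, 1360, and Control mouse F2212 was far below the other Control mice (log2 fold change 0.16, 95% interval -0.06 to 0.38, limma adjusted p = 0.603). Without F2212 the log2 fold change of Eif4e was 0.08. Eif4e2 and Eif4e3, whose proteins bind the cap but serve other complexes, had log2 fold changes of -0.06 and -0.26 and overlapped. In scaled read counts, not divided by transcript length, the scaffold genes Eif4g1 and Eif4g2 were among the highest of the initiation factors. Eif4g1, which joins eIF4E, eIF4A and eIF3, had 12375 ± 843 against 11764 ± 1855 (SD, n = 4 each). Control mouse F7111 had the highest Eif4g1 value of the 8, 14428. Eif4g2, a relative that lacks the eIF4E-binding part, had 18463, 20363, 20759 and 18214 against 16109, 16571, 18453 and 18113, so that Low AA mouse H1315 lay below Control mouse F7111 (log2 fold change 0.17, 95% interval -0.05 to 0.38). Eif4g3 had a log2 fold change of -0.01. Eif4b, whose protein stimulates eIF4A, had 9370 ± 830 against 9386 ± 800 (SD, n = 4 each), a change bounded to between -14.9% and 17.0%. Eif4h, a relative of Eif4b, had a log2 fold change of 0.06, and Eif4enif1 one of 0.23 with overlapping values.

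The 3 genes for subunit joining overlapped between the diets. Eif5, the GTPase activator of eIF2, had 9320 ± 910 against 9422 ± 1237. Eif5b, the GTPase that joins the subunits, had 1912 ± 89.5 against 1991 ± 40.9. Eif6, which keeps the large subunit free until it is needed, had 1442 ± 97.1 against 1510 ± 226 (SD, n = 4 each). Their log2 fold changes ran from -0.06 to -0.01, and the limma adjusted p ran from 0.843 to 0.985. Eif5a, which carries the modified residue hypusine and helps ribosomes past stalling sequences, had 8928, 9007, 9484 and 10178 against 8717, 9431, 7951 and 8649, with overlap (log2 fold change 0.11, 95% interval -0.09 to 0.32).

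The elongation factor genes all had positive log2 fold changes, while the kinase of eEF2 had the largest negative one of the 56. Eef1a1, on chromosome 9 from 78478449 to 78489151, had 181644, 188235, 192546 and 204479 scaled read counts in the Low AA mice and 152134, 163128, 148246 and 166742 in the Control mice. All Low AA values were above all Control values, and the change was 21.7% with a 95% interval of 2.2% to 44.9% (log2 fold change 0.28, standard error 0.11, limma adjusted p = 0.358). Over fits without each mouse its log2 fold change stayed between 0.25 and 0.31. Processed pseudogenes of Eef1a1 are numerous in mammals, so its reads may have been shared among copies. Eef1b2, the eEF1A exchange subunit on chromosome 1 from 63176825 to 63180486, had 6170, 6743, 6976 and 7604 against 5641, 5716, 3822 and 5134. The diets did not overlap, and Control mouse F7111 was the lowest by a wide margin. Its change of 36.7% was the largest positive one among the 56 members (log2 fold change 0.45, 95% interval 0.15 to 0.75, limma adjusted p = 0.211). Without F7111 the log2 fold change of Eef1b2 was 0.32, and with the length trend removed it was 0.47 (limma adjusted p = 0.0619).

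The other genes grouped by symbol with Eef1b2 had smaller differences. Eef1g had 6082, 6542, 6399 and 6794 in the Low AA mice and 6073, 6264, 5206 and 5096 in the Control mice, an overlap of 1 Control mouse, F2212, with the lowest Low AA mouse (log2 fold change 0.19, limma adjusted p = 0.499). Eef1d had 2504 ± 223 against 2432 ± 316 (SD, n = 4 each), with a log2 fold change of 0.05 that was -0.02 without Control mouse F7111. Eef1e1, whose protein sits in the complex of aminoacyl-tRNA synthetases, had 236 ± 11.7 against 209 ± 14.7 (SD, n = 4 each). Within mice the ratio of Eef1a1 to Eef1b2 was 26.9 to 29.4 in Low AA mice against 27.0 to 38.8 in Control mice.

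Eef2, the translocase, had 48955, 66209, 54102 and 57612 in the Low AA mice and 49047, 47666, 52903 and 43497 in the Control mice. Low AA mouse H1126 lay within the Control range, and the highest value was that of H828 (log2 fold change 0.23, 95% interval -0.04 to 0.50, limma adjusted p = 0.523). Eef2k, the kinase that inactivates eEF2, lies on chromosome 7 from 120842831 to 120907450 and was far less abundant. It had 91, 102, 61 and 75 against 139, 137, 117 and 126. No Low AA value reached the lowest Control value, and the change was -37.3% with a 95% interval of -52.2% to -17.8% (log2 fold change -0.67, standard error 0.18, limma adjusted p = 0.148). Over fits without each mouse the log2 fold change stayed between -0.79 and -0.54, and with the length trend removed it was -0.71 (limma adjusted p = 0.117). The ratio of Eef2 to Eef2k was 538, 649, 887 and 768 in the Low AA mice and 353, 348, 452 and 345 in the Control mice. The lowest Low AA ratio was above the highest Control ratio, and this ratio too was formed after the values had been seen and was given no test.

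**Figure D3:**
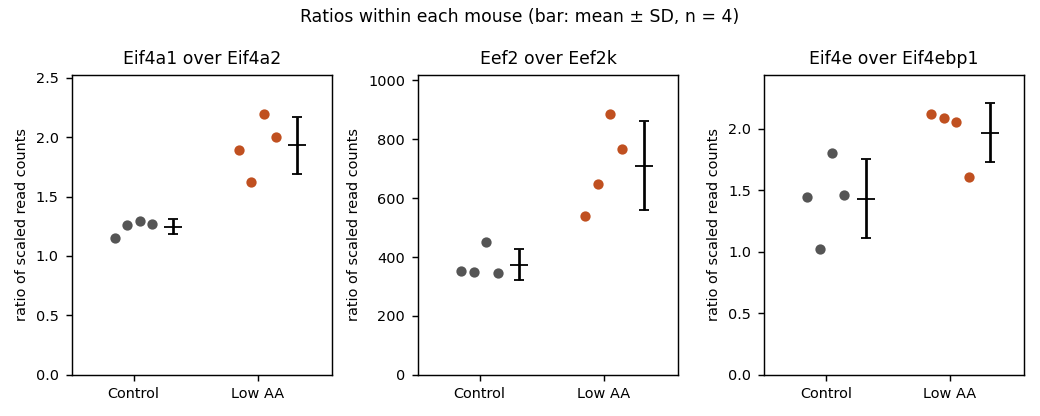
Ratios of scaled read counts within each of the 4 Control (grey) and 4 Low AA (orange) mice (vertical axes, from 0), with the mean and SD as bars. Eif4a1 over Eif4a2 and Eef2 over Eef2k are higher in every Low AA mouse than in any Control mouse, whereas Eif4e over Eif4ebp1 overlaps, with 1.61 to 2.12 in Low AA mice against 1.02 to 1.81 in Control mice.

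The promoter windows of Eif4a2, Eef2k, Eef1b2 and Eef1a1, members with an unadjusted p under 0.05 and no overlap, are printed so that the sequence before their start can be read beside the values. Eif3e, which met the same terms, is named only. The windows printed are from RefSeq on GRCm38.p6, the build called mm10 in the submitters' notes, limited to the 150 bases before the annotated start, 5′ to 3′ on the gene's strand. Capitals mark an E-box, CACGTG, the only match in them to the letters searched. Eif4a2 is at chr16:23107318-23107467 on the plus strand, Eef2k at chr7:120842681-120842830 on the plus strand, Eef1b2 at chr1:63176681-63176830 on the plus strand and Eef1a1 at chr9:78481725-78481874 on the minus strand. Eef2k has 3 annotated starts, of which the one nearest the 5′ end of the gene is shown. The RefSeq start used for Eef1a1 lies inside the GENCODE span given above, whose 5′ end is at 78489151.
Eif4a2: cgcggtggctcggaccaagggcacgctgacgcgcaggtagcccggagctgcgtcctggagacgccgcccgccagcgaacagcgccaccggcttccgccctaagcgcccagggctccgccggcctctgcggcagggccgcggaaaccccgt
Eef2k: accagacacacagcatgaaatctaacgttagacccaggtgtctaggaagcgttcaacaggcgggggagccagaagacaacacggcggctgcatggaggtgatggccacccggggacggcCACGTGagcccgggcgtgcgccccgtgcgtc
Eef1b2: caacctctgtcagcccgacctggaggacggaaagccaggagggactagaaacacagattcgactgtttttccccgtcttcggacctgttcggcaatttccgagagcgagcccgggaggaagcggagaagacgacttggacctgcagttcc
Eef1a1: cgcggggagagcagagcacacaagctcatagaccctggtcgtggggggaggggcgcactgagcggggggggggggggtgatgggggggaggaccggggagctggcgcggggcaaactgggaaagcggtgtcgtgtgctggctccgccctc

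Windows of 250 bases before the start were found for 45 of the 56 members, 60 windows in all, and for 9278 genes of the table, 11871 windows in all. The letters searched on both strands were CACGTG (E-box), TGATGNAA (core of the element bound by ATF4), CCGGAAGT (ETS site) and TATAAA (core promoter box), and none of these holds the letters of another. The E-box letters were in 12 of the 60 member windows (20%) and in 8.38% of all windows. They came from 10 genes, Eef2, Eef2k, Eif1b, Eif3f, Eif3k, Eif4a1, Eif4e, Eif4g1, Eif4h and Eif5a, and each of them but Eef2k had a positive log2 fold change, as 75.0% of the members did. Genes with several starts count more than once. The ATF4 core was in 2 member windows (3.33%), of Eef2k and Eif2s3x, and in 1.996% of all windows. The ETS letters were in 6.67% of member windows and 5.80% of all, and those of the core promoter box in 8.33% and 6.95%. A match of letters is a description of the window and not a bound site.

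Levels were compared between genes per kilobase of transcript, using the longest basic protein-coding transcript of each gene in the GENCODE annotation of GRCm38. Eef1a1 was the most abundant member, with 97349 scaled reads per kb on average over the 8 mice, rank 27 of the table, followed by Eef2 with 16995 and Eif1 with 11467. Their ranges over the 8 mice did not meet, with 82634 to 113979 for Eef1a1, 14081 to 21434 for Eef2 and 8105 to 13530 for Eif1. Eif5a, with 6293, and Eif4a1, with 5980, came next, and their ranges overlapped. Eif3j, the loosely bound subunit of eIF3, had 387, and the other eIF3 genes lay between 843 and 2219 scaled reads per kb. The cap-binding gene Eif4e, at 273, was below its scaffolds Eif4g1, at 2141, and Eif4g2, at 2299. Eef2k, at 16.1, and Eif2c3, at 4.10, were the lowest of the members. The longest annotated transcript may not be the one the liver uses, which would lower the level of genes with long variants, such as Eif4g2.

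**Figure D4:**
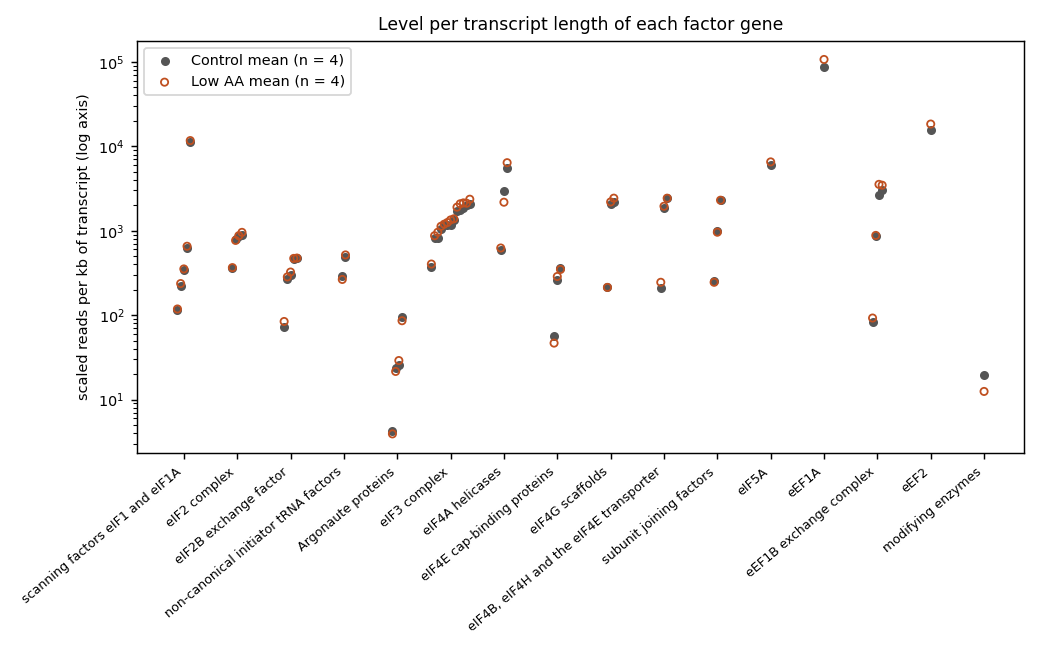
Mean scaled reads per kb of transcript (log axis) of each of the 56 genes, grouped by complex, on the Control diet (filled, n = 4) and on the Low AA diet (open, n = 4). Levels run from 4.10 for Eif2c3 to 97349 for Eef1a1 as means over the 8 mice, and the 2 diets nearly coincide for most genes.

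Eef1a1 made up 40.4% to 46.3% of all scaled reads on the 56 members. The members together took 1.41%, 1.57%, 1.48% and 1.44% of the scaled reads in Low AA mice H1126, H828, H817 and H1315, and 1.27%, 1.31%, 1.24% and 1.33% in Control mice F129, F2212, F7111 and F2110. The Low AA shares were all above the Control shares. Without Eef1a1 the shares were 0.77% to 0.89% in Low AA mice against 0.74% to 0.75% in Control mice, which again did not overlap. Such shares weigh genes by abundance, and Eef2, the next most abundant at 43497 to 66209 scaled read counts, was still included. With Eef2 left out as well, the share in Low AA mouse H1315 lay below that in Control mouse F129, so the diets overlapped. The median deviation of the members, which counts every gene alike, also overlapped, with -0.02 in H1126 (Low AA) and 0.03 in F129 (Control).

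Among the 4 Argonaute genes, Eif2c2 and Eif2c3 spread widely within each diet. Eif2c2 had 383, 542, 451 and 227 scaled read counts in the Low AA mice and 218, 148, 569 and 489 in the Control mice. Low values were found in mice of both diets, H1315, F129 and F2212, and these are the mice with the highest balance of short over long transcripts. Eif2c3 was likewise low in the same mice, with 33 in H1315, 29 in F129 and 18 in F2212 against 66 to 117 in the others. Both have long annotated transcripts, 13800 and 15595 bases. Their 95% intervals for the log2 fold change, -0.62 to 1.24 and -1.03 to 1.45, were the widest of the members. Eif2c1 and Eif2c4 had log2 fold changes of -0.13 and -0.14. Eif2c1, with 7227 bases, was lowest in Low AA mouse H1126, at 556. Eif2c4, with 6537 bases, was lowest in H1315 and F2212, at 121 in each. Whether transcript length accounts for these values was not tested. Without the Argonaute genes, 40 of 52 members had a positive log2 fold change and the median remained 0.09. With the length trend removed, the standard error of the log2 fold change was 0.28 for Eif2c2, where it had been 0.42, and 0.41 for Eif2c3, where it had been 0.56.

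**Figure D5:**
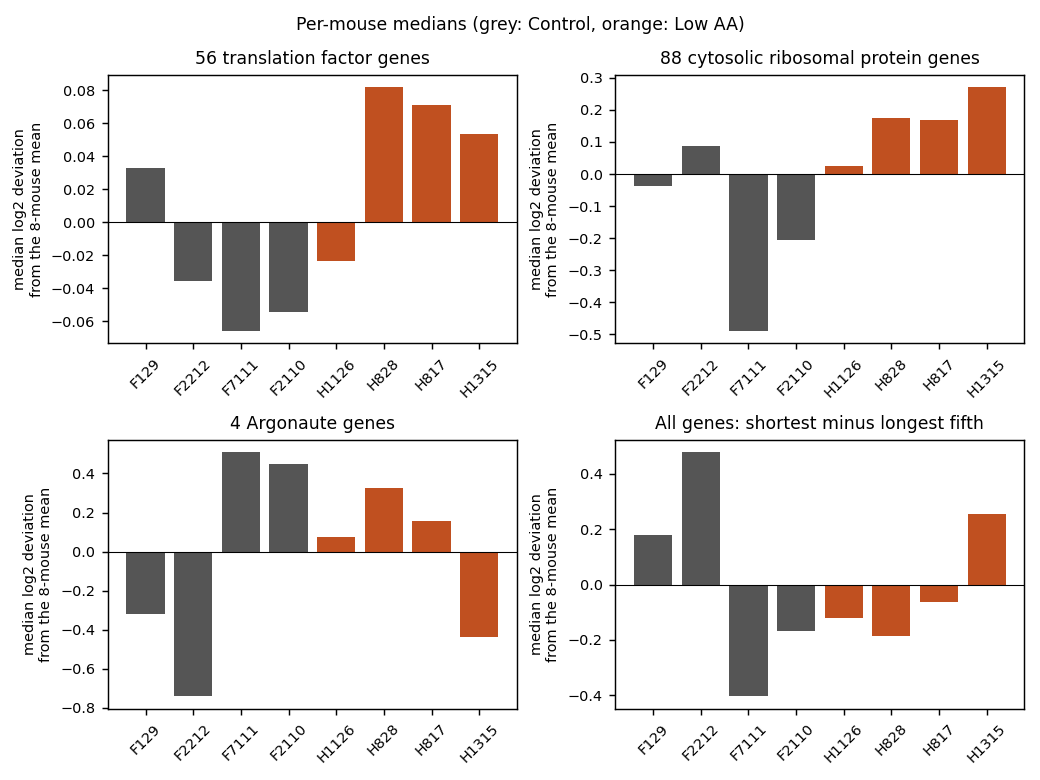
Median log2 deviation from the 8-mouse mean (vertical axes, different scales) for each Control (grey) and Low AA (orange) mouse, for the 56 translation factor genes, 88 cytosolic ribosomal protein genes, 4 Argonaute genes, and the shortest minus the longest transcripts of the table, 20% of genes each. The Argonaute medians are lowest in F2212, H1315 and F129, the mice in which the last panel is highest.

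Of 60 other genes of translation control that were listed, 59 were in the table, and 0 passed the limma test. At an unadjusted p under 0.05 in limma there were 3 (5.08%), below the 11.8% of all genes that reached it. Of the log2 fold changes 30 were positive and 29 negative, with a median of 0.02. In 3 genes (5.08%), Tpt1 and Paip2b among them, the diets did not overlap, where 6.81% of all genes did not. Tpt1, which encodes an abundant growth-related protein, had 39445, 42456, 41496 and 44602 in the Low AA mice and 32858, 34036, 24440 and 29133 in the Control mice. The diets did not overlap (log2 fold change 0.49, 95% interval 0.22 to 0.76, limma adjusted p = 0.135), and with the length trend removed Tpt1 passed (limma adjusted p = 0.0308). Paip2b, an inhibitor of poly(A)-binding protein, had 480 ± 49.7 against 629 ± 67.0 (SD, n = 4 each; log2 fold change -0.39, limma adjusted p = 0.199). Eif4ebp1, the mTORC1-regulated inhibitor of eIF4E, had 678, 706, 712 and 846 against 941, 1077, 753 and 922. Low AA mouse H1315 lay above the lowest Control mouse, F7111 (log2 fold change -0.32, 95% interval -0.60 to -0.04, limma adjusted p = 0.347). Its relative Eif4ebp2 had 1901 ± 177 against 1764 ± 487 (SD, n = 4 each). Eif2ak4, the kinase GCN2 that senses uncharged tRNA, had 166, 159, 180 and 156 against 192, 177, 258 and 189, and overlapped by 1 Low AA mouse (log2 fold change -0.29, limma adjusted p = 0.473). Pabpc1, the poly(A)-binding protein, had a log2 fold change of 0.06.

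The ribosomal protein genes, a family next to the elongation factors in function, are given for comparison. Of 88 cytosolic ribosomal protein genes 87 had a positive log2 fold change, with a median of 0.32, and 1, Rpl22l1, passed the limma test. At an unadjusted p under 0.05 in limma there were 48 (54.5%), all of them higher on the Low AA diet, where 11.8% of all genes reached that p, and 27 (30.7%) did not overlap between the diets, where 6.81% of all genes did not. Per mouse, their median deviation was -0.49 in Control mouse F7111, the mouse with the lowest Eef1b2, Eif1 and Tpt1 values, and 0.27 in Low AA mouse H1315, the mouse with the highest Eef1b2 and Eef1a1 values. Between these extremes the diets overlapped, with Control mouse F2212 at 0.09 above Low AA mouse H1126 at 0.03. The balance of short over long transcripts was lowest in F7111, at -0.40, and highest in F2212, at 0.48. Of 20 cytosolic aminoacyl-tRNA synthetase genes 11 were positive, with a median of 0.01, and 0 passed the limma test. In limma 2 of them (10%) had an unadjusted p under 0.05, near the 11.8% of all genes. The difference of the factor genes from either family was not tested.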

How the data were processed

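Poly(A) RNA from 8 livers was sequenced from stranded libraries as single reads. The submitters' processing notes name mm10, bcl2fastq 1.8.2, STAR 2.5.0a, RSEM 1.2.6, edgeR 3.10.5 and R 3.2.1, without their roles. The authors deposited a signal per gene and mouse, a read count scaled by a factor that is not stated and rounded, after genes of low expression had been removed. The signed fold change, a score, and the FDR, a q-value, that the authors deposited come from their own comparison and stayed out of every step. Scaled values call for a test on a log scale, and sequencing depth is unknown.

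Values were analysed as log2(value + 1) over all 11784 genes by limma (version 3.58.1, under R 4.3.3), moderated along a mean-variance trend, with Benjamini-Hochberg adjustment and a threshold of 0.05. Requiring a value of 1 or more in 4 or more mice removed 0 genes. The script was tested on simulated data. Groups follow the diet labels, with 1 mouse per library. Positions and transcript lengths are from GENCODE M21, to which 11666 symbols were matched, 952 of them by an older symbol, among them 5 of the 56 members.

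The members and lists were chosen with earlier results of these data known. Genes were named if a member had an unadjusted p under 0.05 or no overlap between diets, if it was a core factor on a written list, if it had the largest or smallest change in its complex, or if it had the highest or lowest level per length; of the control list those with an unadjusted p under 0.05 and Eif2ak4, Eif4ebp1, Eif4ebp2 and Pabpc1 were named. Other members are given as values of their complex. Alternatives were other pseudocounts, filters, scalings and moderation, and each mouse left out; removal of the transcript length trend in each mouse by lowess was added after the values were seen. Figures were drawn with matplotlib 3.10.9.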

Additional observations from a re-analysis of the deposited data

Results flagged for a closer look

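In 8 of 92 groups of 4 mice, formed from the values of the named genes and the members' median in each diet, a single mouse lay so far from the other 3 that its gap took up most of the range of the group, where chance gives about 1 in 20. The gap is given as a share of the range. For Eif4e it was 0.951 in Control mouse F2212, and for Eif1ad it was 0.883 in Control mouse F7111. For Eif2b5 it was 0.86 in Control mouse F129. On the Low AA diet, mouse H817 stood apart for both Eif2s1, at 0.849, and Eif2s2, at 0.84. Mouse H1126 stood apart for Eif4enif1, at 0.866, and for Eef1d, at 0.855. For Eif2c3 it was 0.857 in mouse H1315.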

How the results depend on the processing

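The labels give no pairing of mice between the diets, so no paired analysis was made. The mice were group housed, the labels give no cage, and the fit treated each mouse as independent. The count of members passing the limma test was 0 under every other pseudocount, filter, scaling and moderation at the 0.05 threshold, leaving out each mouse included, with 1 at an adjusted p under 0.1 and 5 at an unadjusted p under 0.05. With the length trend removed, chosen after seeing the data, it was 1, Eif4a2, and 118 genes of the table passed against 47. Non-overlapping members numbered 6 with equal column totals and 7 with the other scaling and pseudocounts. Without each mouse they ranged from 8 to 12, which says nothing of stability, since leaving out a mouse cannot create an overlap. The median log2 fold change then ranged from 0.06 to 0.11. Directions turned for Eif4b, at 0.00067 with equal column totals and 0.0011 with median of ratios scaling, and for Eif2s2, at 0.012 with the length trend removed. Leaving out each mouse gave ranges of log2 fold change that span 0: Eef1d -0.023 to 0.11, Eif1 -0.069 to 0.18, Eif1a -0.012 to 0.23, Eif1ax -0.028 to 0.069, Eif2b5 -0.021 to 0.045, Eif2c2 -0.041 to 0.60, Eif2c3 -0.27 to 0.61, Eif2s1 -0.053 to 0.058, Eif2s2 -0.043 to 0.031, Eif4b -0.054 to 0.051, Eif4g3 -0.16 to 0.082, Eif5 -0.064 to 0.074, Eif6 -0.15 to 0.026 and Pabpc1 -0.0031 to 0.16. Depth is unknown, so no counting error can be given.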
